A study of Mus musculus with 24 samples.

Results

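Heat shock factor target chaperones are the protein-folding helpers that cells make more of when their proteins unfold. The 10 genes described are Hspa1a, Hspa1b, Dnajb1, Hsph1, Hsp90aa1, Hspb1, Hspd1, Hspe1, Hspa8 and Bag3, and their probes were taken as the array's non-control probes that bear one of these names. By this rule 14 probes for 9 of the 10 genes were found, among 23886 named genes on the array. No probe bore the name Hspa1b, but the annotation of the Hspa1a probe lists transcripts of Hspa1a and Hspa1b alike, so its signal cannot be split between them and is called Hspa1a here. All 14 probes lay well above background on all 24 arrays, so no member was lost to the filter on dim probes.

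The cells were primary mouse alveolar type II cells, the surfactant-making cells of the lung alveolus, grown as a monolayer at an air-liquid interface. In a first experiment they received medium alone (vehicle, DMEM) or NaHS at 100 µM, which sets hydrogen sulfide free quickly, for 6 h or for 24 h. In a second experiment all cells received 100 µM GYY4137, which releases hydrogen sulfide slowly, for 24 h in either 21% or 85% O2. There were 4 arrays in each of the 6 groups, so 16 belonged to the NaHS experiment and 8 to GYY4137. A donor-free group in 21% or 85% O2 was not analysed here, so the oxygen comparison holds for cells with GYY4137 only. The labels do not say whether replicates came from separate animals or cultures, so p-values measure the spread between these samples, which may be technical.

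In resting cells, heat shock factor 1 is held inactive, in part by the chaperones themselves. When unfolded proteins draw the chaperones away, the factor forms trimers and binds heat shock elements, repeats of the unit GAA and its reverse TTC spaced by 2 bases, in the promoters of its targets. The products work as a team: HSP70 proteins bind unfolded chains, an HSP40 partner delivers those chains, exchange factors release them, HSP90 finishes a subset of clients, small heat shock proteins hold aggregating proteins, and a chaperonin ring folds proteins inside mitochondria. Some members, such as Hspa8, are abundant without stress, while Hspa1a and Hspa1b are known for strong induction.

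The promoters of the inducible HSP70 pair are shown because the array reads both genes with 1 probe. The 250 bases before the RefSeq start of each gene (GRCm38.p6, minus strand of chromosome 17) run as follows, with the single GAANNTTC element of each in capitals.
Hspa1a, chr17:34972157-34972406: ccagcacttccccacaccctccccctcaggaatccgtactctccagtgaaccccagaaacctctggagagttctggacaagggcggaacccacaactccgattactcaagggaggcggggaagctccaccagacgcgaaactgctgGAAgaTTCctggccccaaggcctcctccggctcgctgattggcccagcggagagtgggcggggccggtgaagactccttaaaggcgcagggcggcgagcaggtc
Hspa1b, chr17:34959239-34959488: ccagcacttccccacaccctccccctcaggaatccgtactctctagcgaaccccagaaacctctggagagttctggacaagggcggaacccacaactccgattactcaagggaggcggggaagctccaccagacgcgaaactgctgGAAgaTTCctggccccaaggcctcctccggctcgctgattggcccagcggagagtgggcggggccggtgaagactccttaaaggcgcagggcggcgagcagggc
These windows were 98.8% identical, with 3 differences over 250 bases: C44T, T47C and T249G, counted from 1 at the 5′ end of the window with the Hspa1a base first. The probe that reads the pair is the following 60-base sequence at chr17:35107117-35107176 (mm9, minus strand).
Hspa1a probe: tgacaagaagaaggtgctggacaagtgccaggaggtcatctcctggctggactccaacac

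Promoter windows were given for 8 of the 10 genes, all but Hsp90aa1 and Hspa8, and 6 of these held a GAANNTTC or TTCNNGAA element. Over 32851 RefSeq promoter windows of this length, searched on both strands, 12.8% held either element, and 0.466% held the trimer, 3 such units in a row with the same spacing, which contains both. The trimer was found for Hspd1 and Hspe1, which encode the ring and the lid of the mitochondrial chaperonin and are read in opposite directions from the same stretch. Hspd1 has 2 windows in the table, and the other one, chr1:55088244-55088493, held neither element. The stretches below are shown because they hold the elements of the members other than the HSP70 pair, with matched units in capitals; Hsph1 has 1 element.
Hspe1, chr1:55088057-55088078, plus strand: cgTTCtaGAAccTTCcgGAAgg
Hspd1, chr1:55088057-55088078, minus strand: ccTTCcgGAAggTTCtaGAAcg
Hspb1, chr5:135887800-135887829, plus strand: gaGAAgtTTCcagatgggggcaGAAccTTC
Hsph1, chr5:149636352-149636371, minus strand: ctTTCtcGAAggctcgagaa
No window of Bag3 or Dnajb1 held these letters. A match is a description of the sequence, not a measured binding site.

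Levels below are log2 signals relative to the 75th percentile of the same array, so a level of 0 equals that percentile and a difference of 1 is a doubling. Levels of different probes cannot be set against each other. Slide 1 had 55.8% to 58.3% of its spots well above background, slide 2 had 68.5% to 74.5%, slide 3 had 72.1% to 77.7% and slide 4 had 70.3% to 78.2%. Every group of the NaHS experiment had 2 arrays on slide 1 and 2 on slide 2. All 21% O2 arrays were on slide 3 and all 85% O2 arrays on slide 4, so oxygen and slide cannot be told apart. The 6 h arrays lay in the first row of their slides and the 24 h arrays in the second, so time and row cannot be told apart either. In the NaHS experiment the vehicle arrays lay in columns 1 and 2 and the NaHS arrays in columns 3 and 4. Treatment and column thus cannot be told apart. Between slides 1 and 2, 47.3% of all genes differed by limma at an adjusted p under 0.05, and 2 of the 9 members did: Hsp90aa1 (slide 2 minus slide 1, -0.28, adjusted p = 0.000154) and Hsph1 (-0.39, adjusted p = 0.000935). In the NaHS experiment 9 of 12 type II cell markers passed that mark on each of the 16 arrays, and Slc34a2, a phosphate transporter of these cells, on none. The fibroblast markers (7 of 8) and smooth muscle markers (6 of 6) did so on each of the 16 as well. So did type I cell (7 of 8), macrophage (7 of 10), club and ciliated cell (4 of 8) and endothelial markers (3 of 6). In such bulk RNA, fewer cells of a type and less RNA per cell cannot be told apart.

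**Figure D1:**
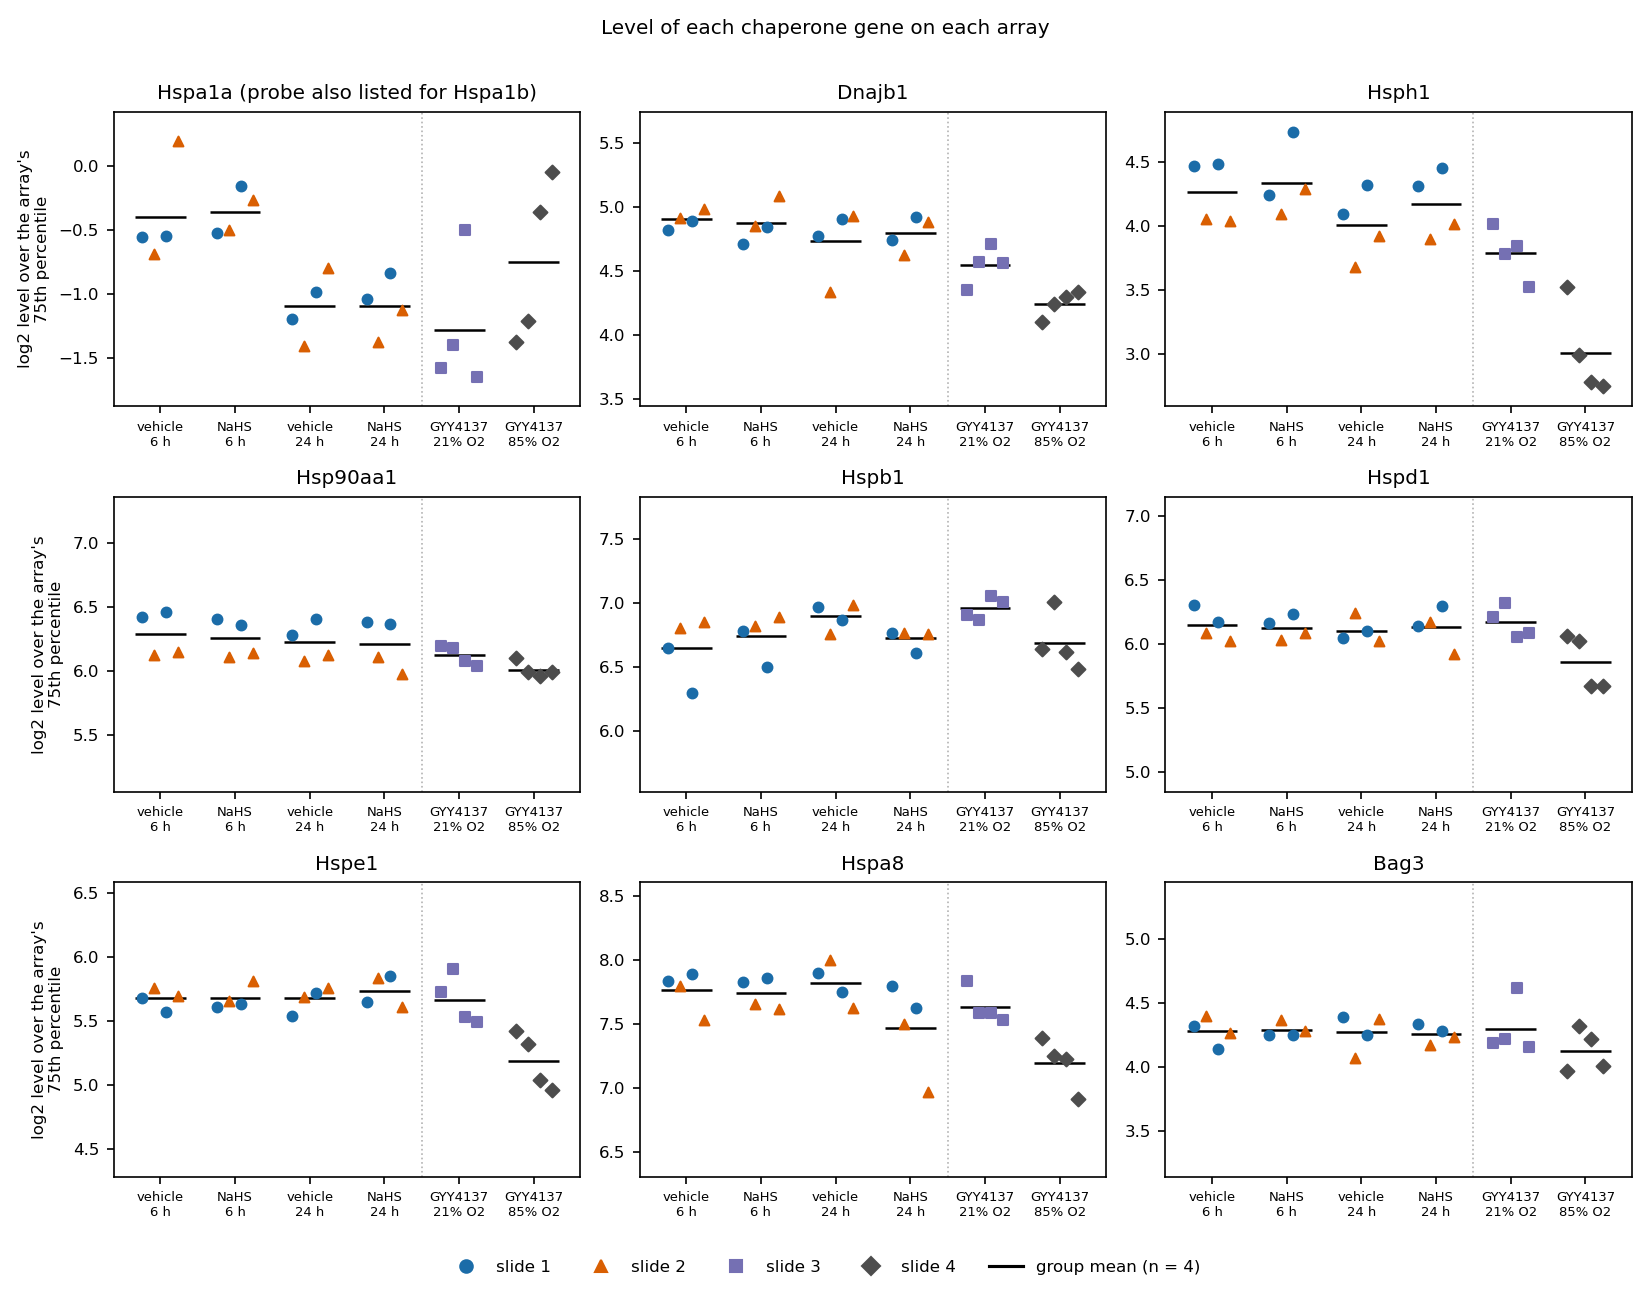
Log2 level of each of the 9 measured genes (y axis, relative to the 75th percentile of the array) on each of the 24 arrays (points, shaped by slide) in the 6 groups (x axis), with group means as lines (n = 4). Hspa1a sits lower in both 24 h groups of the NaHS experiment than in the 6 h groups, and Hsph1 sits lower in 85% than in 21% O2.

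After NaHS none of the 9 measured chaperones passed the test, at 6 h or at 24 h. On the brightest probe of each gene, differences lay between -0.35 and 0.16 on the log2 scale. For Hspa1a, the inducible HSP70, the vehicle arrays at 6 h stood at -0.56, -0.69, -0.55 and 0.19 and the NaHS arrays at -0.53, -0.50, -0.16 and -0.27. These groups overlapped, and the difference was 0.04 ± 0.20 (SE, limma, 95% interval -0.39 to 0.46, adjusted p = 1). At 24 h the vehicle arrays stood at -1.20, -1.41, -0.99 and -0.80 and the NaHS arrays at -1.04, -1.38, -0.84 and -1.13, again overlapping, with a difference of 0.01 ± 0.20 (95% interval -0.42 to 0.43, adjusted p = 1).

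The co-chaperones of HSP70 had differences of 0.16 at most on the brightest probe of each gene. Dnajb1, the HSP40 partner that brings substrates to HSP70, stood at 4.82, 4.91, 4.89 and 4.98 in vehicle and at 4.71, 4.85, 4.84 and 5.08 in NaHS at 6 h, and differed by -0.03 ± 0.13 at 6 h and 0.06 ± 0.13 at 24 h. Hsph1, an HSP110 protein that exchanges the nucleotide of HSP70, differed by 0.08 ± 0.19 and 0.16 ± 0.19. The second Hsph1 probe differed by 0.17 ± 0.13 and 0.23 ± 0.13. Averaged over both times it differed by 0.20 ± 0.09 (limma over all probes, unadjusted p = 0.0408), and it did not pass the test either. Bag3, an exchange factor that links HSP70 to autophagy, differed by 0.01 ± 0.09 and -0.01 ± 0.09.

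Among the other classes, Hsp90aa1, the inducible cytosolic HSP90, differed by -0.03 ± 0.13 at 6 h and -0.02 ± 0.13 at 24 h. Hspb1, a small heat shock protein, differed by 0.10 ± 0.13 and -0.17 ± 0.13. The mitochondrial pair differed by -0.02 ± 0.10 and 0.03 ± 0.10 for Hspd1 and by 0.00 ± 0.09 and 0.06 ± 0.09 for Hspe1. None of these passed the test (limma, adjusted p = 1 throughout).

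Hspa8, the constitutive HSP70, was the member with the largest difference after NaHS. At 24 h its vehicle arrays stood at 7.90, 8.0, 7.75 and 7.63 and its NaHS arrays at 7.80, 7.50, 7.63 and 6.97, so the groups overlapped and replicate 4 of NaHS was lowest. The difference was -0.35 ± 0.16 (limma, 95% interval -0.69 to 0, adjusted p = 1), and it was -0.18 without that array. On slide 1 it was -0.11 and on slide 2 -0.58. The other two Hspa8 probes differed by 0.13 ± 0.16 and -0.05 ± 0.10, so the 3 probes of the gene did not share a direction.

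Across all 33271 genes or unnamed probes tested, limma called 0% at 6 h and 0% at 24 h, with 196 (0.589%) and 759 (2.28%) at an unadjusted p under 0.05. Of the members 0 and 1, Hspa8, reached that. Both shares of all genes were below what this threshold gives when nothing differs. Slide was not a term in this fit, so differences between slides counted as spread between the arrays of a group, which limits what the test can call. With slide as a block, Hspa8 at 24 h differed by -0.35 ± 0.13 (limma, unadjusted p = 0.0234, adjusted p = 0.522). The NaHS effect at 24 h minus that at 6 h was called for 0 members and 0% of all genes (358 genes at an unadjusted p under 0.05), and the NaHS effect averaged over both times for 0 members and 0% (509 genes unadjusted). The 95% interval lay within 1.5-fold either way for 9 of 9 members at 6 h, 8 of 9 at 24 h, all but Hspa8, and 9 of 9 for the average, beside 42.0%, 39.3% and 50.3% of all genes. For the 83 other genes of the folding machinery, described below, the shares were 85.5%, 80.7% and 90.4%. All genes include some well above background on only 4 arrays of the experiment, while the member probes were so on every array. The median difference of the members was 0.00 at 6 h and 0.01 at 24 h, beside 0.003 and -0.008 over all genes.

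**Figure D2:**
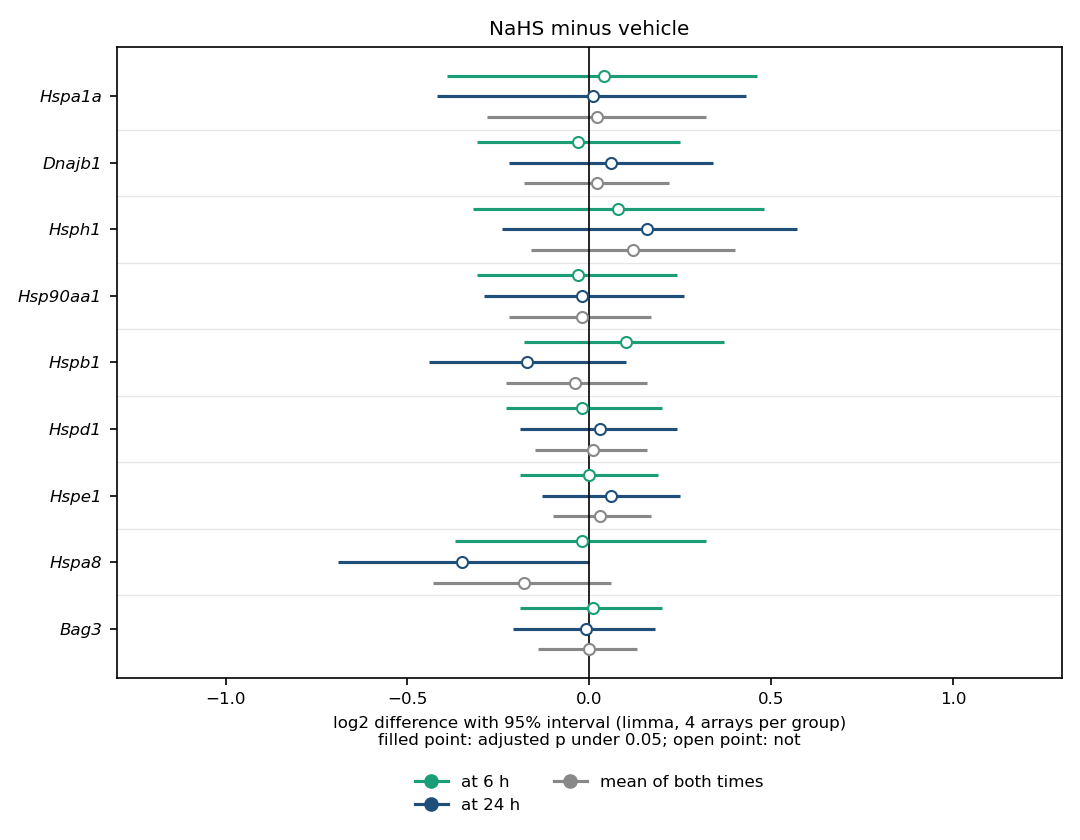
Log2 difference between NaHS and vehicle (x axis, point, with its 95% interval as a line) for each gene (y axis) at 6 h, at 24 h and averaged over both times, 4 arrays per group. No point is filled, as no gene had an adjusted p under 0.05, and only the interval of Hspa8 at 24 h reaches beyond 1.5-fold.

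No other gene of the folding machinery passed the test after NaHS. Of 83 tested genes out of 84 listed in 10 classes, from HSP40 proteins to chaperones of the endoplasmic reticulum, limma called 0 at 6 h and 0 at 24 h, and 0 and 3 had an unadjusted p under 0.05. The smallest p at 6 h belonged to Zfand2a, a stress-induced regulator of proteasomes (-0.17 ± 0.10), Hikeshi, which carries HSP70 into the nucleus (-0.18 ± 0.11), and the heat shock factor Hsf4 (0.52 ± 0.33). At 24 h it belonged to the small heat shock protein Hspb2 (-0.44 ± 0.15), the HSP90 co-chaperone Fkbp4 (0.28 ± 0.11) and the TRiC chaperonin subunit Tcp1 (0.18 ± 0.08). For the effect averaged over both times the same rule named Hspb2 (-0.26 ± 0.10), Tcp1 (0.11 ± 0.06) and Zfand2a (-0.13 ± 0.07), and for the difference between the times Hsf4 (-0.98 ± 0.47), Fkbp4 (0.32 ± 0.15) and Hspb2 (-0.36 ± 0.21). All of these had an adjusted p of 1.

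Between 6 h and 24 h, Hspa1a fell. In vehicle it went from -0.56, -0.69, -0.55 and 0.19 to -1.20, -1.41, -0.99 and -0.80, and every 24 h array lay below every 6 h array, as was so for 7.29% of all genes in either direction. In NaHS it went from -0.53, -0.50, -0.16 and -0.27 to -1.04, -1.38, -0.84 and -1.13, again without overlap (6.24% of all genes). Averaged over vehicle and NaHS, the level at 24 h was 1.64-fold lower than at 6 h (-0.71 ± 0.14, limma, adjusted p = 0.0141), the only call among 9 members, beside 4.15% of all genes called and 1.64% called lower.

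Within vehicle alone the difference was -0.70 ± 0.20 (adjusted p = 0.125) and within NaHS -0.73 ± 0.20 (adjusted p = 0.268), so neither passed the test on its own, beside 0.806% and 0.0271% of all genes called. With the replicate number as a block, the vehicle difference passed (adjusted p = 0.0348). The effect did not differ between vehicle and NaHS beyond its error (-0.03 ± 0.28, 95% interval -0.63 to 0.57, adjusted p = 1). The averaged call was lost when each array was centred on its median (-0.69, adjusted p = 1), but not when slide was a block in that fit (adjusted p = 0.0123). Within slide 1 the averaged difference was -0.56 (adjusted p = 0.138) and within slide 2 -0.86 (adjusted p = 0.301), each from 2 arrays a group. Leaving out any 1 array gave -0.76 to -0.61 and kept the call.

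The other 8 members showed no call with time. Averaged over vehicle and NaHS, Hsph1 differed by -0.21 ± 0.13, Dnajb1 by -0.13 ± 0.09, Hspa8 by -0.11 ± 0.11 and Hsp90aa1 by -0.06 ± 0.09. The second Hsph1 probe differed by -0.26 ± 0.09 (limma over all probes, adjusted p = 0.119). The other Hspa8 probes differed by -0.19 ± 0.07 (adjusted p = 0.169) and -0.13 ± 0.11 (adjusted p = 0.711), so the probes of each gene shared a direction without a call. Hspb1 differed by 0.11 ± 0.09, with 0.24 ± 0.13 in vehicle and -0.02 ± 0.13 in NaHS. Hspd1, Hspe1 and Bag3 differed by -0.02 ± 0.07, 0.03 ± 0.06 and -0.02 ± 0.06. The median over the 9 members was -0.06, beside -0.012 over all genes.

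Of the 83 other folding genes, 4 rose and 1 fell between 6 h and 24 h when vehicle and NaHS were averaged, beside 2.52% of all genes called higher and 1.64% called lower. Hspb11, listed with the small heat shock proteins by name and known as a part of the ciliary transport machinery, rose by 0.51 ± 0.05 (adjusted p = 0.00102). Sqstm1, the autophagy receptor p62, rose by 0.66 ± 0.14 (adjusted p = 0.0223), Dnajb9, a co-chaperone of the endoplasmic reticulum, by 0.42 ± 0.07 (adjusted p = 0.00832) and Trap1, the mitochondrial HSP90, by 0.24 ± 0.05 (adjusted p = 0.0203). Hspa4l, an HSP110 family member, fell by 0.47 on the log2 scale (adjusted p = 0.012). Hspb11, Sqstm1, Dnajb9 and Hspa4l were called under 4 of 5 scalings and Trap1 under 2, and none of the 83 was called with the median of each array. In vehicle alone 1 of the 83 rose, Hspb11 (0.52 ± 0.08, adjusted p = 0.0185), and 0 fell. In NaHS alone 0 of the 83 were called, with 11 at an unadjusted p under 0.05 (7.72% of all genes), and the smallest p again belonged to Hspb11 (0.49 ± 0.08), followed by Dnajb9 (0.42 ± 0.10) and Trap1 (0.30 ± 0.07).

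Some markers of type II cells and of other cells differed over the same hours. Averaged over vehicle and NaHS, limma called 2 of 11 type II cell markers lower and 1 higher: the surfactant protein genes Sftpa1 (-2.75, adjusted p = 0.00262) and Sftpc (-2.15, adjusted p = 0.0478) fell, and the transcription factor gene Etv5 (0.49, adjusted p = 0.0391) rose. In vehicle alone 1 of these 11 was called lower, and in NaHS alone 0 were called. Levels of each list were also summed on the linear scale, where the brightest probes weigh most. The log2 of that sum is given. For these markers it ran from 5.64 to 6.61 at 6 h and from 5.32 to 5.89 at 24 h in vehicle. In NaHS it ran from 5.63 to 7.10 and from 5.47 to 6.07. In vehicle, 10 of 10 macrophage markers had a positive difference between 24 h and 6 h (median 0.79). The log2 of their summed level ran from 1.95 to 2.95 at 6 h and from 2.63 to 4.09 at 24 h. For smooth muscle markers it was 6 of 6 (median 0.63), with sums of 9.17 to 10.01 and 10.02 to 10.23. For club and ciliated cell markers it was 0 of 7 (median -2.04), with sums of 4.47 to 7.38 and 1.52 to 4.13. Of 10 immediate early genes, which respond to cell handling, 0 were positive (median -0.21), with sums of 6.02 to 6.16 and 5.49 to 6.26. In these vehicle lists limma called 0 macrophage markers, 0 smooth muscle markers, 0 immediate early genes and 1 club and ciliated cell marker, which fell. Type I cell markers were positive in 4 of 8 (median 0.02, 0 called). Fibroblast markers were positive in 4 of 8 (median -0.10, 1 called higher) and endothelial markers in 4 of 6 (median 0.40, 0 called). In NaHS, where Hspa1a differed about as much, 9 of 10 macrophage markers (median 0.56) and 5 of 6 smooth muscle markers (median 0.64) were positive, with sums of 1.81 to 3.14 at 6 h and 2.05 to 3.98 at 24 h for the former and 9.31 to 9.93 and 9.56 to 10.02 for the latter. Club and ciliated cell markers were positive in 2 of 7 there (median -0.55, sums of 4.64 to 5.79 and 2.46 to 4.82) and immediate early genes in 4 of 10 (median -0.03, sums of 5.92 to 6.22 and 5.95 to 6.16). In these NaHS lists limma called 1 macrophage marker, which rose, and 0 smooth muscle, club and ciliated or immediate early genes. Type I cell markers were positive in 4 of 8 there (median -0.05, 0 called). Fibroblast markers were positive in 2 of 8 (median -0.27, 0 called) and endothelial markers in 4 of 6 (median 0.29, 0 called). Averaged over vehicle and NaHS, limma called 2 of 6 smooth muscle markers and 1 of 10 macrophage markers higher. It called 2 of 7 club and ciliated cell markers and 1 of 10 immediate early genes lower. Of 8 fibroblast markers 1 was called higher and 1 lower, and 0 type I and 0 endothelial markers were called. Over all genes 2.52% were called higher and 1.64% lower. The part of all these markers in the fall of Hspa1a was not tested.

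With GYY4137, 8 of the 9 members had a lower mean in 85% than in 21% O2, and 1 of them, Hsph1, passed the test. The 21% O2 arrays of Hsph1 stood at 4.01, 3.78, 3.84 and 3.52 and the 85% O2 arrays at 3.52, 2.99, 2.78 and 2.75. All but 1 of the high-oxygen arrays lay clearly below, and the highest of them met the lowest 21% O2 array to 2 decimals. Hsph1 was 1.72-fold lower (-0.78 ± 0.20, limma, adjusted p = 0.0338), beside 15.5% of all 34658 genes called and 5.61% called lower. Of the calls over all genes 63.9% were higher in 85% O2, but 37.1% when each array was centred on its median, 50.4% after quantile normalization and 51.4% with the deposited table. Its second probe stood at 3.5, 3.14, 3.27 and 2.85 in 21% O2 and at 2.62, 2.08, 1.62 and 1.77 in 85% O2, without overlap, and differed by -1.17 ± 0.24 (limma over all probes, adjusted p = 0.0165). The call for Hsph1 was lost without replicate 1, 2 or 3 of 21% O2 or replicate 2, 3 or 4 of 85% O2, with adjusted p up to 0.0948 and differences of -0.95 to -0.69 over all left-out arrays, and it was lost with no filter on dim probes (adjusted p = 0.0534).

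The constitutive HSP70 and the mitochondrial lid came next. Hspa8 stood at 7.84, 7.59, 7.59 and 7.53 in 21% O2 and at 7.39, 7.25, 7.23 and 6.92 in 85% O2, with every high-oxygen array below every other, and differed by -0.44 ± 0.14 (limma, adjusted p = 0.0646). All 3 of its probes were lower here, by -0.44, -0.43 and -0.36. Hspe1 stood at 5.73, 5.91, 5.53 and 5.49 in 21% O2 and at 5.42, 5.32, 5.04 and 4.96 in 85% O2, also without overlap, and differed by -0.48 ± 0.15 (adjusted p = 0.0701; 0.0492 with the replicate number as a block). Its other probes differed by -0.53 ± 0.12 (limma over all probes, adjusted p = 0.022), which passed the test, and by -0.44 ± 0.15 (adjusted p = 0.08). The latter shares 57 of its positions with the brightest Hspe1 probe, whose levels are given above. The annotation of the probe that passed also lists transcripts that the other Hspe1 probes do not list.

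Hspd1, the ring that Hspe1 closes, stood at 6.21, 6.32, 6.05 and 6.08 in 21% O2 and at 6.06, 6.02, 5.67 and 5.67 in 85% O2 and differed by -0.31 ± 0.14 (adjusted p = 0.158). Dnajb1 stood at 4.35, 4.57, 4.71 and 4.56 and at 4.10, 4.24, 4.29 and 4.33, without overlap, and differed by -0.31 ± 0.12 (adjusted p = 0.109). Counted on unrounded values, 4 members did not overlap between the groups (22.9% of all genes did not): Dnajb1, Hsph1, Hspe1 and Hspa8. Hspb1 differed by -0.27 ± 0.14, Bag3 by -0.17 ± 0.15 and Hsp90aa1 by -0.12 ± 0.10. The median of the members was -0.31, beside 0.058 over all genes, of which 55.3% were positive. Under each of the 5 scalings run, 8 of 9 members had a lower mean in 85% O2, with a median of -0.45 to -0.21.

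Hspa1a was the one member with a higher mean in 85% O2, and its arrays spread widely. It stood at -1.58, -1.40, -0.50 and -1.65 in 21% O2 and at -1.38, -1.21, -0.36 and -0.05 in 85% O2, overlapping, with a difference of 0.53 ± 0.36 (95% interval -0.30 to 1.37, adjusted p = 0.331). Over left-out arrays it ran from 0.30 without replicate 4 of 85% O2 (adjusted p = 0.611) to 0.79 without replicate 3 of 21% O2 (adjusted p = 0.164). Its pooled SD in this experiment was 0.59, beside 0.07 to 0.29 for the other members and a median of 0.28 over all genes.

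**Figure D3:**
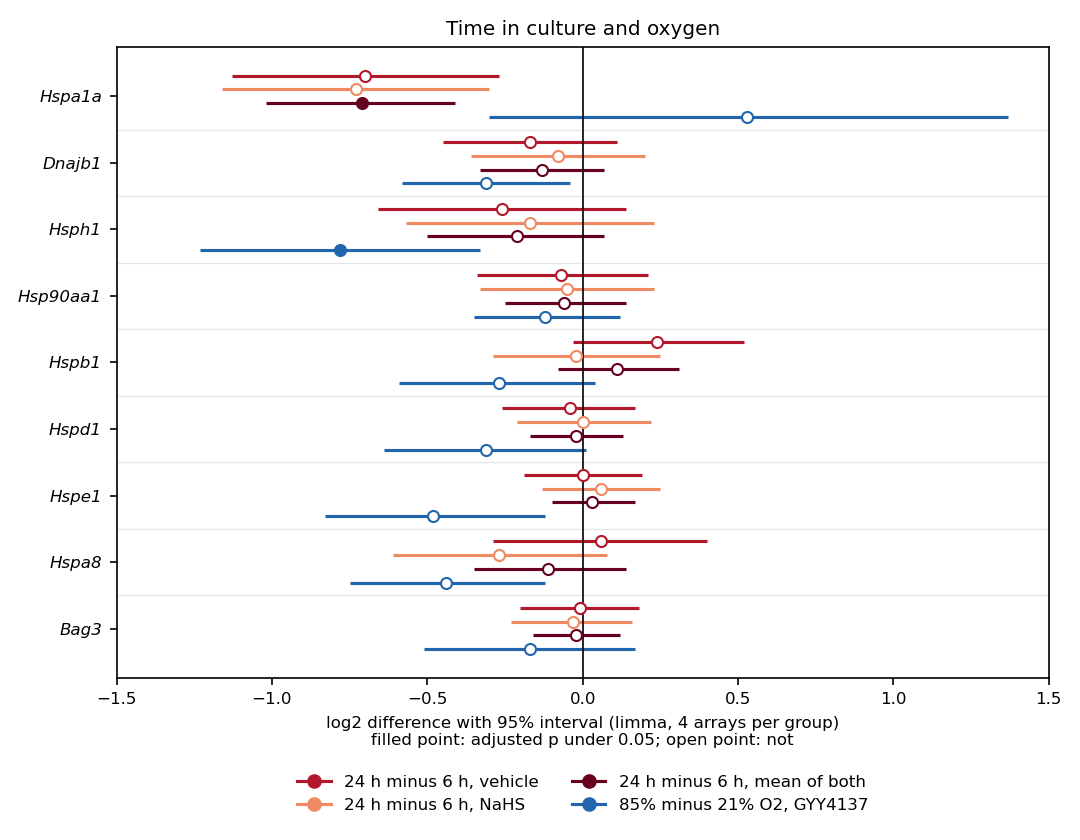
Log2 difference (x axis, point, with its 95% interval as a line) for each gene (y axis) between 24 h and 6 h in vehicle, in NaHS and averaged over both, and between 85% and 21% O2 with GYY4137, 4 arrays per group. Filled points, with an adjusted p under 0.05, are Hspa1a for the averaged time difference and Hsph1 for oxygen; 8 of 9 oxygen points lie left of 0.

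Of the 83 other folding genes, 14 fell and 2 rose in 85% O2 (limma), beside 5.61% of all genes called lower and 9.91% called higher. Chaperones of the endoplasmic reticulum made up most of those that fell, 8 of 12 tested, with a median of -0.80 over the list, and 8 to 10 of 12 under the 5 scalings. Creld2 (-1.34 ± 0.12, adjusted p = 0.00143), Manf (-1.04 ± 0.11, adjusted p = 0.00219) and Sdf2l1 (-1.25 ± 0.15, adjusted p = 0.00294) are stress-induced proteins of that compartment. Dnajc3, a co-chaperone there, fell by 1.27 (adjusted p = 0.00489), and Hsp90b1, its HSP90, by 0.92 (adjusted p = 0.00701). Fkbp5, an HSP90 co-chaperone known as a glucocorticoid target, fell by 1.01 (adjusted p = 0.00677). Among HSP90 and its co-chaperones 2 of 11 were lower, among the other HSP70 and HSP110 genes 2 of 8 were lower and 1 higher, among small heat shock proteins 1 of 9 was higher, and among other known targets of heat shock factors 2 of 9 were lower. No gene was called among the HSP40 (8), BAG (6), mitochondrial (8), TRiC (8) and heat shock factor (4) lists, where 2, 1, 2, 1 and 0 had an unadjusted p under 0.05, beside 34.1% of all genes.

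Cell markers differed here as well. Of 8 fibroblast markers 0 were positive (median -0.41). The log2 of their summed level ran from 9.21 to 9.37 in 21% O2 and from 8.49 to 9.22 in 85% O2. Of 6 smooth muscle markers 0 were positive (median -0.36), with sums of 9.67 to 10.08 and 9.33 to 9.84. Club and ciliated cell markers were positive in 5 of 5 tested (median 0.82), with sums of 0.76 to 2.23 and 1.56 to 2.57. Macrophage markers were positive in 7 of 10 (median 0.51), with sums of 1.99 to 2.81 and 2.19 to 3.53. Endothelial markers were positive in 5 of 6 (median 0.59), while their sums were 2.67 to 3.01 and 2.08 to 2.73. Of 10 type II cell markers tested 5 were positive (median -0.05) and 1, the lamellar body gene Lamp3, was called lower (-1.05, adjusted p = 0.0045), with sums of 5.29 to 5.85 and 4.97 to 5.33. Type I cell markers were positive in 2 of 8 (median -0.13, 0 called) and immediate early genes in 5 of 10 (median 0). In the other lists limma called 2 of 5 club and ciliated cell markers and 1 of 6 endothelial markers higher. It called 1 of 8 fibroblast and 1 of 6 smooth muscle markers lower, and 0 macrophage markers. Of the immediate early genes 1 was called higher and 1 lower. Over all genes 9.91% were called higher and 5.61% lower. The part of these markers in the chaperone differences was not tested.

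The members did not move as 1 block from array to array. Over the 16 arrays of the NaHS experiment, each gene centred within its slide, 23 of 36 pairs of members correlated positively, 7 above 0.5, with a median Pearson r of 0.08. The highest were Hspa1a with Hsph1 (0.71), Dnajb1 with Hsph1 (0.68) and Hspa1a with Dnajb1 (0.64), followed by Hspb1 with Bag3 (0.56) and the mitochondrial pair Hspd1 and Hspe1 (0.54). Each gene was next centred by group and then by slide, which takes out the mean of each, and the order changed. Differences between groups that vary by slide remain in these values. Hspb1 with Bag3 was then highest (0.72), followed by Dnajb1 with Hsph1 and Hspd1 with Hspa8 (0.66 each) and Hspa1a with Dnajb1 (0.64), while Hspa1a with Hsph1 stood at 0.50, Hspd1 with Hspe1 at 0.57 and Hspa1a with Hsp90aa1 at 0.14 (0.52 within slide alone). The lowest with this centring were Dnajb1 with Hspa8 (-0.62) and Dnajb1 with Hspd1 (-0.55). The points share arrays, slides and the scaling of each array, so these values are a description. The 8 named genes closest to the mean profile of the 9 members, among 13756 genes above background throughout, were Lnpep (0.87), Tekt4 (0.87), Igsf9b (0.85), Hnrnpf (0.84), C87490 (0.84), Septin1 (0.83), Ltb4r2 (0.82) and Klhl2 (0.81). They were picked as the highest of 13756 values over 16 arrays, and shared regulation was not tested.

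**Figure D4:**
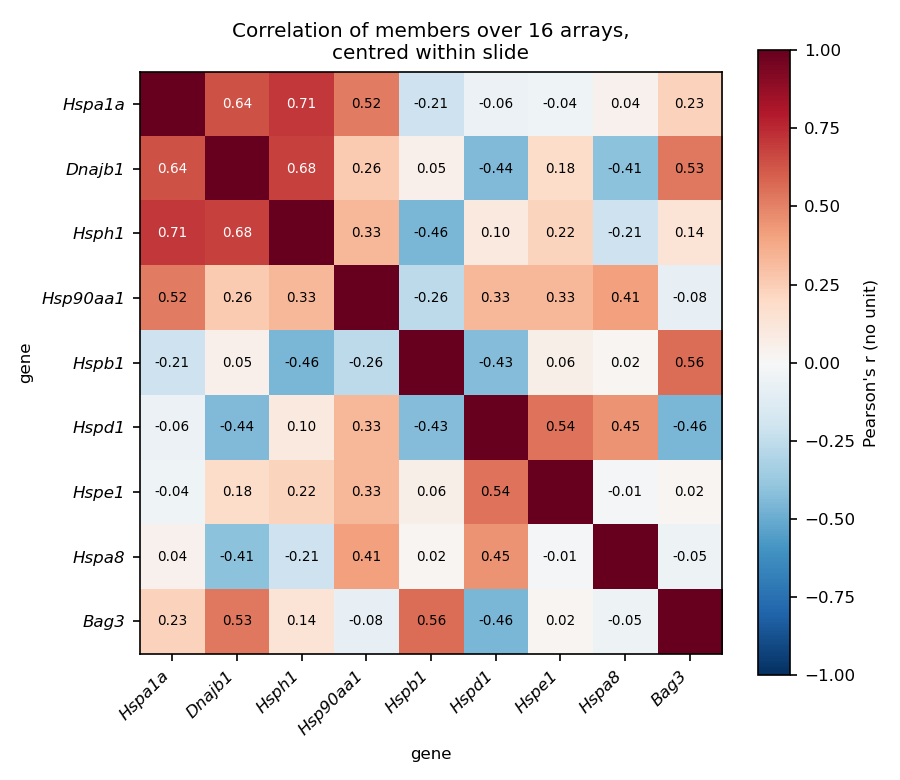
Pearson r (colour and number, no unit) between each pair of the 9 measured genes (both axes) over 16 NaHS experiment arrays, centred within slide. The 3 pairs among Hspa1a, Dnajb1 and Hsph1 have the highest values with this centring, 0.64 to 0.71, which is not so when time and treatment are taken out as well.

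The number of arrays and their spread limit the precision. The pooled SD of the members in the NaHS experiment ran from 0.10 for Hspe1 and Bag3 to 0.28 for Hspa1a, beside a median of 0.41 over all genes. The genes behind that median had to be well above background on only 4 of the 16 arrays, while the member probes were so on each.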

How the data were processed

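Spot intensity was read with Agilent Feature Extraction 10.7.3.1, per the submitters' processing notes. The intensity used is its processed signal, background-subtracted per the file headers, with flags for signals well above background. The values the authors deposited are log2 (normalization not given in the sources used here; scale and centring were read from the values, with a median of 5.953 on the 16 NaHS experiment arrays and 7.081 on the other 8, and a correlation of at least 0.998 with the scanner signal). They were used as an alternative.

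From the log2 signal of each non-control probe the 75th percentile of its array was subtracted. Probes well above background on at least 4 arrays of an experiment were kept, and the brightest probe stood for a gene. Each experiment was fitted apart with limma 3.58.1 in R 4.3.3 (group means, moderated statistics, Benjamini-Hochberg adjustment over all genes, called under 0.05), with data.table (version 1.17.8); tables and figures were made in Python 3.11.15 (pandas 2.3.3, numpy 2.4.6, matplotlib 3.10.9). The fit was tested on simulated data. Promoter sequences are from RefSeq.

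Same-numbered replicates deviated together (r of 0.54 to 0.75 in the NaHS experiment, where the number also sets the slide, and 0.18 to 0.26 in the GYY4137 experiment, where it also sets the array column), so by the rule for pairing a block fit was run. In the NaHS experiment arrays of another number on the same slide had a median r of 0.62, beside 0.65 for the same number. On different slides the median was -0.62, so these values do not show a pairing by number beyond the slide. All members are named; other folding genes by the called ones, at most 6 by p, or else the 3 smallest p; and the 8 genes most like the members' mean profile. Members and lists were chosen with earlier results of these data known. Alternatives were background correction, scaling, filter, probe choice, slide, replicate number and left-out arrays.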

Additional observations from a re-analysis of the deposited data

Results flagged for a closer look

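In 3 of 54 sets of 4 arrays (9 genes in 6 groups), 1 array stood apart from the other 3 by Dixon's criterion, which chance meets in about 1 in 20. Hspa1a on replicate 4 of vehicle at 6 h stood at 0.19, the other arrays at -0.69 to -0.55. Hspb1 on replicate 3 of NaHS at 24 h stood at 6.61, the others at 6.76 to 6.77. Bag3 on replicate 3 of GYY4137 in 21% O2 stood at 4.62, the others at 4.16 to 4.22. Without the first of these, the averaged time difference of Hspa1a was -0.61 (limma, adjusted p = 0.0141).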

How the results depend on the processing

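The count of called members was 0 in all NaHS comparisons under every alternative run. For 24 h against 6 h in vehicle it became 1 with the replicate block, which also took Hspe1 past the threshold for oxygen and changed no other call of a member. For the averaged time difference it fell from 1 to 0 with the median of each array, within slide 1 and within slide 2, where fewer arrays were fitted, and was 1 to 1 over left-out arrays. For oxygen it was 2 with normexp (Hsph1, Hspa8), 3 with the median of each array (Hspa8, Hspe1, Hsph1), 0 with no filter, 2 with the mean of a gene's probes and 2 with the replicate block, and 0 to 1 over left-out arrays; apart from the settings so explained, the cause was not tested. Of 2016 single-member results under an alternative, 1985 were called in both fits, or in neither with a change smaller than the replicate SD. Of the rest, 15 uncalled ones moved by more than that SD, 10 lost a call, 6 gained one and 0 called ones reversed. Over all 2016, 190 uncalled differences changed sign. Genes called over all tested, for vehicle over time, numbered 268, against 1 with the median of each array, 511 with that and slide as a block (chosen after seeing the data), 898 with the replicate block, 711 with slide as a block, 583 with normexp, 463 with every probe on its own, 710 with probes above background on every array, 166 with the deposited table, 63 with no filter, 0 with only the groups compared, 0 within slide 1, 1 within slide 2 and 7 to 340 over left-out arrays. For time in NaHS they numbered 9, against 58 with probes above background on every array, 16 with slide as a block, 5 with normexp, 2 with quantile normalization, 2 with the deposited table, 1 with no filter, 0 with the median of each array, with only the groups compared and within either slide, and 0 to 12 over left-out arrays. For the average they numbered 1382, against 2 with the median of each array, 836 with no filter, 2085 with probes above background on every array, 2351 with slide as a block, 2098 with median and slide, 2638 with the replicate block, 0 within either slide and 735 to 1417 over left-out arrays. For oxygen they numbered 5379, and 2059 to 6705 over left-out arrays. With no filter 1 gene was called for the averaged NaHS effect. The median of all oxygen differences moved from 0.058 to -0.079 with the median of each array.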
